A study of Zea mays with 12 samples.

Results

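Terpene synthases turn prenyl diphosphates into the carbon skeletons of terpenes, and in maize many of them serve defence: their products are volatiles released by wounded leaves and roots, or are made into antifungal phytoalexins within the tissue. Related enzymes of the same family make the diterpene precursor of gibberellin, a growth hormone. The 6 genes described here were chosen by their timing class as well as by name, with earlier results of these data known. RefSeq lists them under the symbol or synonym tps1, tps6, tps10, tps11, tps23 or tps26 on Zm-B73-REFERENCE-NAM-5.0, and each name met 1 gene. They are 6 of 33141 protein-coding genes with a timing class, in a list of 47019 genes on 10 chromosomes.

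The study used Repli-seq, a method that labels DNA as it is being copied and sequences it from nuclei sorted by stage, to map when each part of the genome is replicated in root tips of maize (inbred line B73). Seedlings of 3 days were given a 20 min pulse of 25 µM EdU, a thymidine analogue, followed by 100 µM thymidine, and nuclei from the last 1 mm of the roots were sorted into early S, mid S, late S and G1, with 3 biological replicates of each and 12 libraries in all. Labelled DNA was immunoprecipitated from the S-phase nuclei, and G1 DNA, sequenced without immunoprecipitation, was the reference. All groups share the genotype, the EdU pulse and the tissue, and the root tip holds many cell types, so a class is an average over them. The values analysed were 1 segmentation in 10 kb windows that gives every segment a class and no library a value. ES, MS and LS are taken to mean early, mid and late S, and ESMS and MSLS to mean neighbouring stages together. Depth and replicate error are therefore unknown, and since the class itself chose what is described, every value below is a description without a test.

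Segment coordinates are printed as deposited, and their genome build was not stated. Gene positions enter only through their distance to segment ends, from the gene midpoint, and none is printed. The timing of DNA copying was measured, not RNA: whether any of these genes was transcribed in the root tip was not measured.

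The genes spread over 4 of the 5 classes. tps1 lay in ES, tps26 in MS, tps6 in MSLS, and tps11, tps23 and tps10 in LS. ES held 1 of the 6, against 54.8% of all classified protein-coding genes, MS 1 against 24.3%, MSLS 1 against 4.22%, LS 3 against 4.86%, and ESMS none against 11.8%. As the 6 were chosen with earlier results of these data known, these counts do not measure enrichment in any class. Position went with class: the 4 genes in MSLS and LS were all on chromosome 10, where 4.79% of protein-coding genes were in MSLS and 5.91% in LS, against 51.1% in ES, 10.5% in ESMS and 27.8% in MS. The genes in ES and MS were on chromosomes 2 and 6. None of the 6 was cut by a change of class, as both ends of each gene lay in the class of its midpoint.

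**Figure D1:**
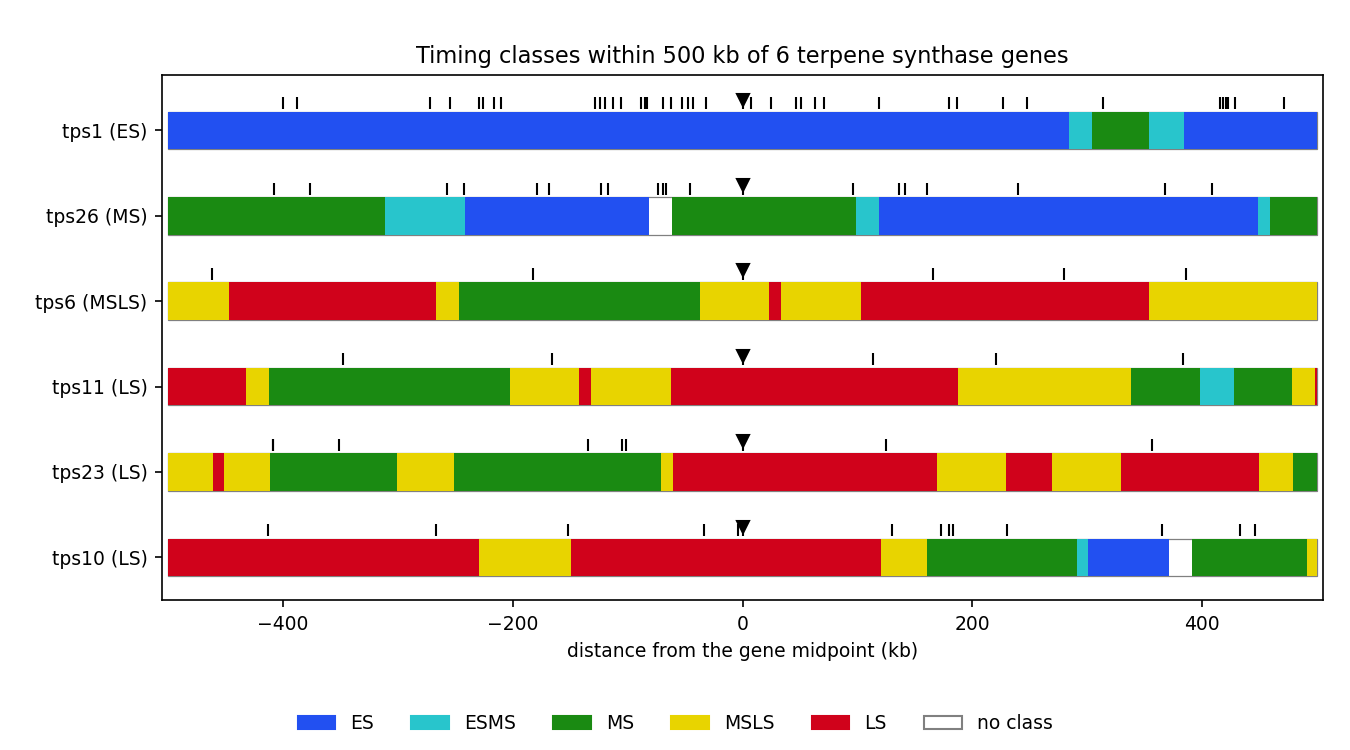
Each bar is the stretch from 500 kb below to 500 kb above the midpoint of a gene (horizontal axis, distance in kb), coloured by timing class, with a triangle at the gene and a tick at each protein-coding gene. ES covers 90.0% of the classified bar around tps1, while the bars of tps6, tps11 and tps23 hold no ES and the bar of tps10 holds 1 ES segment.

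tps1 sat deep inside early-replicating sequence. Its segment on chromosome 2, chr2:10350001-11280000, was 930 kb long, longer than 97.9% of ES segments, and the gene midpoint was 284 kb from the nearer end. The median protein-coding gene in ES lay in a segment of 350 kb and 72.3 kb from an end. Within 500 kb on both sides ES took 90.0% of classified sequence around tps1, against a median of 65.6% around ES genes, with ESMS and MS at 5.00% each. The exception was a dip to MS of 50 kb that began 304 kb above the gene. The nearest LS segment was 10.2 Mb away, against a median of 5.07 Mb for ES genes.

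The gene found under the name tps1 also carries the synonyms eks1, KS and KS2.1, which are names of ent-kaurene synthases, the diterpene synthases on the path to gibberellin. The name TPS1 has also been used in maize for a sesquiterpene synthase, and the gene table, which has no product names, does not say which enzyme this gene encodes. Its place in ES is thus the place of a gene named for both. The segment held 42 protein-coding genes, or 45.2 per Mb, and 40 other protein-coding genes lay within 500 kb of tps1, 39 of them in ES. Its neighbours were close: LOC100274033 lay 32.1 kb below and LOC100276715 lay 7.11 kb above, both in ES.

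tps26 lay in MS but among early sequence. tps26 encodes a monoterpene synthase and has been described as the counterpart of an insect-induced gene. Its MS segment, chr6:118770001-118930000, was 160 kb long, near the median of 170 kb for MS genes, and the midpoint was 61.2 kb from the lower end. Below it came 20 kb without a class and then an ES segment of 160 kb, and above it ESMS of 20 kb and an ES segment of 330 kb. ES therefore took 50% of the classified sequence within 500 kb of tps26, against a median of 16.5% around MS genes, and MS took 39.8%, against 48.5%. No LS lay within 500 kb, and the nearest was 6.49 Mb away, against a median of 0.681 Mb for MS genes. Of the 19 other protein-coding genes within 500 kb, 10 were in ES, 2 in ESMS, 4 in MS and 3 had no class. The neighbours LOC100217090 (46.1 kb below) and LOC100501424 (96.1 kb above) shared the MS segment.

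tps6 and tps11 are neighbours that fell in different classes. Both encode enzymes that make macrocarpene, the sesquiterpene from which the zealexin phytoalexins are built, and tps11 also carries the synonym Umi3. Their midpoints were 165 kb apart on chromosome 10 with no protein-coding gene between them. tps6 lay in an MSLS segment of 60 kb, chr10:56530001-56590000, and tps11 in an LS segment of 250 kb, chr10:56670001-56920000. Going up from tps6, the class changed to LS for 10 kb, back to MSLS for 70 kb and then to the LS segment of tps11. Going down from tps6, it changed 36.7 kb from the midpoint to an MS segment of 210 kb.

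tps6 was thus the gene nearest to a change of class, 23.3 kb from the upper end of its segment, though the median MSLS gene was nearer still, at 18.2 kb. Moved by 50 kb towards lower coordinates it would lie in MS, and it kept its class in the other shifts tried. The midpoint of tps11 was 62.2 kb from the lower end of its segment, near the median of 67.7 kb for LS genes. The gene table gives tps6 and tps11 the same older gene model, GRMZM2G127087, so they may be similar in sequence. The handling of reads that map to several places was not stated, and its part in the classes of the 2 genes was not tested.

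Both genes stood far from early sequence. The nearest ES segment was 3.38 Mb from tps6, farther than for 97.3% of MSLS genes, whose median was 425 kb. The same ES segment was 3.22 Mb from tps11, farther than for 93.7% of LS genes, whose median was 663 kb. These distances are thus not separate observations. Within 500 kb of tps6, LS took 44%, MSLS 35% and MS 21% of classified sequence. Of 5 other protein-coding genes there, 2 were in LS, 2 in MSLS and 1 in MS. The 2 in LS were tps11 itself and LOC103641099, which lies in the segment of tps11. Around tps11, LS took 33.0%, MSLS and MS 32% each and ESMS 3.00%. Its 5 protein-coding neighbours were 1 in LS, 2 in MSLS, among them tps6, and 2 in MS. At this distance 19.9% of LS genes had a lower LS share around them, but the LS share around tps11 was 52.0% within 250 kb and 49.6% within 1000 kb. Counting its own, 4 LS segments reached into the 500 kb on both sides. Nearest to tps11 above was LOC103641099, 114 kb away and in the same segment, and nearest to tps6 below was LOC103642454, 182 kb away and in MS.

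tps23, 1899 kb above tps11, makes (E)-β-caryophyllene, the volatile with which damaged maize roots attract nematodes that kill rootworm larvae. Its LS segment, chr10:58570001-58800000, was 230 kb long, shorter than the median of 330 kb for LS genes, and the midpoint was 60.8 kb from the lower end. Only 10 kb of MSLS separated that end from an MS segment of 180 kb. The 6 protein-coding genes within 500 kb below tps23 were all in MS, and the 2 within 500 kb above it, LOC103641106 at 125 kb and LOC100279257 at 356 kb, were both in LS. The nearest gene below, LOC100282448, lay 101 kb away. LS took 40.0% of classified sequence within 500 kb, MS 31.1% and MSLS 28.9%, with 4 separate LS segments. The nearest ES segment, the same one as for tps6 and tps11, was 1.32 Mb away.

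tps10 lay on the same chromosome 17.0 Mb above tps23 and makes (E)-β-farnesene and (E)-α-bergamotene, volatiles of caterpillar-damaged leaves that attract parasitic wasps. Its LS segment, chr10:75440001-75710000, was 270 kb long, the longest of the 3 LS segments here, and the midpoint was 121 kb from the upper end. It shared the segment with LOC103641227 and with LOC103641228, whose midpoint was 3.88 kb below. LS took 55.2% of classified sequence within 500 kb, near the median of 59.4% for LS genes. Yet an ES segment of 70 kb began 301 kb above the gene, and 23.6% of LS genes were nearer to ES. Between tps10 and that segment every class in the series was passed in order: LS, MSLS for 40 kb, MS for 130 kb and ESMS for 10 kb. With 13 other protein-coding genes within 500 kb, 4 in LS, 2 in MSLS, 6 in MS and 1 in ES, tps10 had more neighbours than 80.2% of LS genes.

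**Figure D2:**
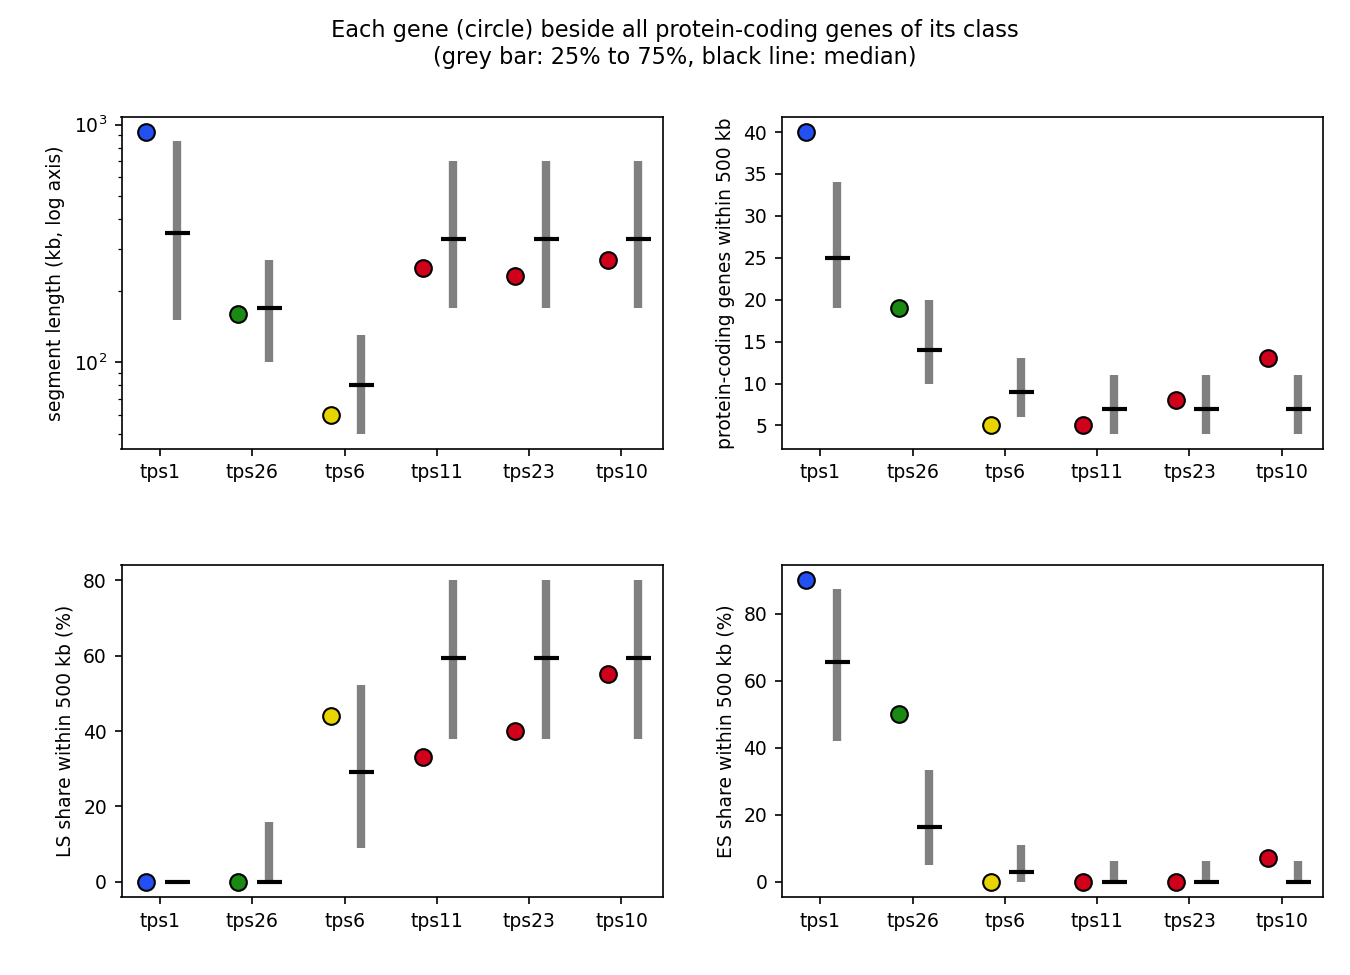
Circles give for each gene the length of its segment (kb, log axis), the number of other protein-coding genes within 500 kb, and the LS and ES shares of classified sequence within 500 kb (%). Beside each circle a grey bar spans the 25% to 75% range and a black line the median of all protein-coding genes of the same class: tps1 lies above the bar in segment length, gene number and ES share, and the LS genes tps11, tps23 and tps10 lie below the median in segment length and LS share.

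The 3 LS genes were thus in moderate LS segments, of 230 to 270 kb, each bounded by MSLS on both sides. Segments of that size were longer than 71.8% to 76.3% of all LS segments, but genes in LS tended to lie in longer ones, with a median of 330 kb. The segments held 2 protein-coding genes for tps11 and for tps23 and 3 for tps10, or 8, 8.70 and 11.1 per Mb. This was few beside the 45.2 per Mb of the tps1 segment. The same density was not computed over all LS segments. Within 500 kb, tps11 had 5 other protein-coding genes, tps23 had 8 and tps10 had 13. The median was 7 for LS genes and 20 for all classified genes. Within 5 Mb, LS held 26.2% of the classified protein-coding genes around tps11, 26.1% around tps23, 24.1% around tps6 and 12.9% around tps10, against none around tps1 and tps26. ES held 3.28%, 4.35%, 3.45% and 19.0% of them around the same 4 genes, and 88.7% around tps1 and 54.6% around tps26. On all of chromosome 10, LS held 5.91% and ES 51.1% of classified protein-coding genes. Each window counts the gene itself. tps6, tps11 and tps23 lie within 2.06 Mb, so their windows largely overlap and their shares are not separate observations. On the length of chromosome 10, tps6, tps11 and tps23 lay at 37.1%, 37.2% and 38.5% and tps10 at 49.6%, in the interior. tps1 lay at 4.51% of chromosome 2 and tps26 at 65.5% of chromosome 6.

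Length did not order the genes by class. tps23 spanned 9314 bp and tps1 8942 bp, at opposite ends of the order, while tps26 spanned 4741 bp, tps10 3541 bp, tps11 3126 bp and tps6 2931 bp. All 6 were longer than the median gene of their own class. For the LS genes that median was 1868 bp, and tps23 was longer than 91.6% of them.

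Class patterns along 500 kb on both sides were compared in 101 steps of 10 kb, in the better of both orientations. tps23 and tps10 had the same class at 54.5% of steps, as had tps1 and tps26, and tps11 and tps23 at 52.5%. tps6 and tps11 matched at 15.8%, although most of their surroundings are the same sequence seen from 165 kb apart, and tps1 and tps6 at none. Among 222 genes with a symbol of their own, more than 1 Mb from the 6, the most like tps1 were ms8 on chromosome 8 at 92.1% of steps and sfp4 on chromosome 1 at 91.1%, both in ES. For tps26, in MS, they were TIP4-3, an aquaporin gene in ES, at 66.3% and umc1467, in ESMS, at 65.3%. For tps6, in MSLS, they were lox11, a lipoxygenase gene, at 57.4% and sfp2 at 54.5%, both in MS. For tps11, in LS, they were the branching regulator ra1, in LS, at 48.5% and PHS1, in MSLS, at 42.6%. For tps23, in LS, they were the phosphate transporter genes pht3, in LS, at 66.3% and pht11, in MS, at 55.4%. For tps10, in LS, they were bZIP45 at 63.4% and pht13 at 58.4%, both in LS. The medians over the 222 genes ran from 15.8% for tps6 to 41.6% for tps26. Nearby genes with such symbols were few. met5, a DNA methyltransferase gene 255 kb below tps1, was in ES, and the nearest above tps1 was the invertase gene IVR1 at 13.3 Mb, in MS. The nearest to tps26 were PPR10, 13.7 Mb below and in ESMS, and opr3, 3.10 Mb above and in MS. On chromosome 10 the nearest, mbd113, lay 31.7 to 50.7 Mb above the 4 genes.

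Other genes with tps names were placed in the same way. A further 16 protein-coding genes carry stc1 or a name of tps and a number, of which 8 were in ES (50% against 54.8% of all protein-coding genes), 2 in ESMS (12.5% against 11.8%), 3 in MS (18.8% against 24.3%) and 3 in LS (18.8% against 4.86%). These names are uncertain, since TPS also stands for trehalose phosphate synthase and only 3 of the 16 have a name that no other gene carries. Of the 3, TPS8 on chromosome 1 and stc1 on chromosome 9, a sesquiterpene synthase gene of herbivore-damaged plants, were in ES, and TPS17, which has the synonym EDS, was in MS in a segment of 30 kb. The first ES gene by position was one of the genes named TPS5, LOC100217143 on chromosome 1.

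The LS genes among them were again close to other tps names. On chromosome 10, LOC542754 and LOC103641226 shared 1 LS segment of 400 kb, chr10:74960001-75360000. LOC542754 carries TPS4 and tps4-B73 but also TPS5, TPS5A and tps5-Del1, and LOC103641226 carries TPS5 and tps5-B73, so the names do not fully separate them. They are called TPS4 and TPS5 here after their B73 allele names. TPS4 and TPS5 make mixtures of sesquiterpenes. Their midpoints were 571 kb and 266 kb below tps10, and 80 kb of MSLS lay between their segment and that of tps10. LOC542689 (TPS9), 735 kb below tps10, lay in an ESMS segment of 50 kb, chr10:74820001-74870000. From TPS9 to tps10 LS took 74.8% of classified sequence, and 5 of the 6 protein-coding genes between them were in LS. LS held 5.91% of all classified protein-coding genes of chromosome 10. The 5 include TPS4 and TPS5, and the stretch was picked for its tps names. The other LS gene was LOC732759 (TPS3) on chromosome 5, in a segment of 200 kb, chr5:73330001-73530000. It lay 213 kb above LOC732758 (TPS2), which was in an MS segment of 90 kb.

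**Figure D3:**
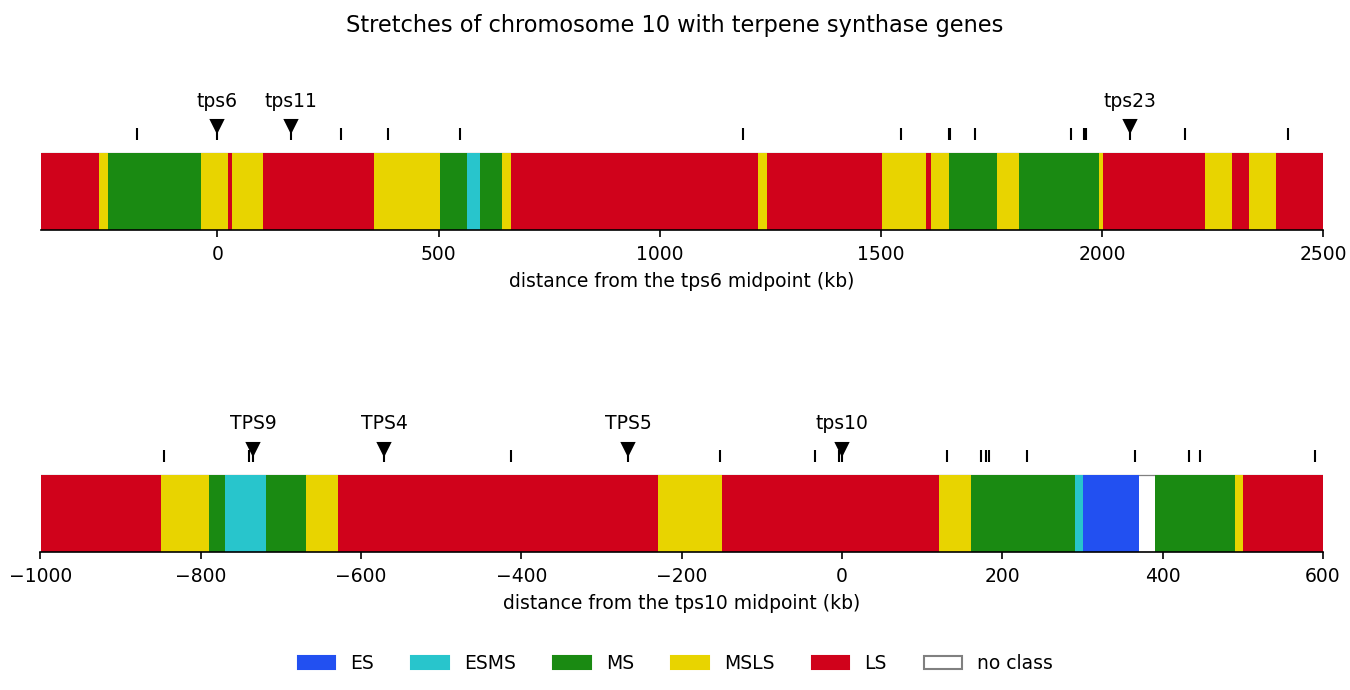
Timing classes along the stretches of chromosome 10 around tps6, tps11 and tps23 (top) and around tps10 (bottom), as distance in kb from the midpoint of tps6 and of tps10, with ticks at protein-coding genes and triangles at genes with tps names. tps11, tps23, TPS4, TPS5 and tps10 stand over LS, tps6 over MSLS and TPS9 over ESMS.

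Counted over all 22 genes with these names, the 7 on chromosome 10 were 5 in LS, 1 in MSLS and 1 in ESMS. None of them was in ES or MS. The 7 include tps6, tps11, tps23 and tps10, which were chosen with earlier results of these data known. The 3 further genes on chromosome 10 were 2 in LS, in 1 shared segment, and 1 in ESMS. LS held 5.91% of all classified protein-coding genes of chromosome 10. The 15 on other chromosomes were 9 in ES, 1 in ESMS, 4 in MS and 1 in LS. They include tps1 and tps26, which were chosen in the same way. The ES share of 60.0% on the other chromosomes was near that of all protein-coding genes, 54.8%. Their LS share of 6.67% was near 4.86%. Without tps1 and tps26, ES held 61.5% and LS 7.69% of the remaining 13. Many of the 22 genes have a name that other genes also carry, and some may be trehalose phosphate synthase genes. Whether the genes on and off chromosome 10 also differ in gene family was not tested. The 7 genes of chromosome 10 lie in 2 stretches, tps6 to tps23 of 2.06 Mb and TPS9 to tps10 of 0.735 Mb, so they are not 7 separate places.

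Other terpenoid pathway genes could be placed only where the table names them. Of 29 genes matched by name in 4 lists, 16 were in ES, or 55.2% against 54.8% of all protein-coding genes, 4 in ESMS (13.8% against 11.8%) and 9 in MS (31.0% against 24.3%). None was in MSLS or LS, which hold 4.22% and 4.86% of all genes. Whether a count of 0 in a list of this size differs from those shares was not tested. The 6 genes matched by precursor and prenyl transferase names were 2 each in ES, ESMS and MS, or 33.3% each. The shares of all genes were 54.8%, 11.8% and 24.3%. The first of the 6 in ES was hds1 of the plastid precursor pathway on chromosome 5. The 6 diterpene and gibberellin genes were 2 in ES (33.3% against 54.8% of all genes), with CPS1 the first, and 4 in MS (66.7% against 24.3%), among them an1 and an2, the ent-copalyl diphosphate synthases, in segments of 110 kb and 70 kb. Cytochrome P450 genes of phytoalexins and homoterpenes were 2 in ES (50% of 4, against 54.8% of all genes), 1 in ESMS and 1 in MS. Of the phytoalexin enzymes, CYP71Z16 was in MS in a segment of 160 kb and CYP71Z18 in ESMS in a segment of 10 kb, and CYP92C6 and CYP92C5, which make homoterpenes, were in ES.

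Of 13 genes matched by carotenoid gene names, 10 were in ES (76.9% against 54.8% of all genes), 1 in ESMS and 2 in MS. ES held the desaturase genes pds1 and vp9 and the phytoene synthase genes psy2 and psy3, and the phytoene synthase gene y1 was in ESMS in a segment of 40 kb. The lists were matched by name and include genes whose further synonyms point elsewhere. These are the gene matched as ps1, which also carries LA1, and IDI2, which also carries M1Pi, both in MS. The gene matched as sps1, in ESMS, has only the further name SPS, which does not tell which enzyme it encodes. These genes may not be terpenoid genes, but they were kept in the counts of their lists and of all lists together.

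**Figure D4:**
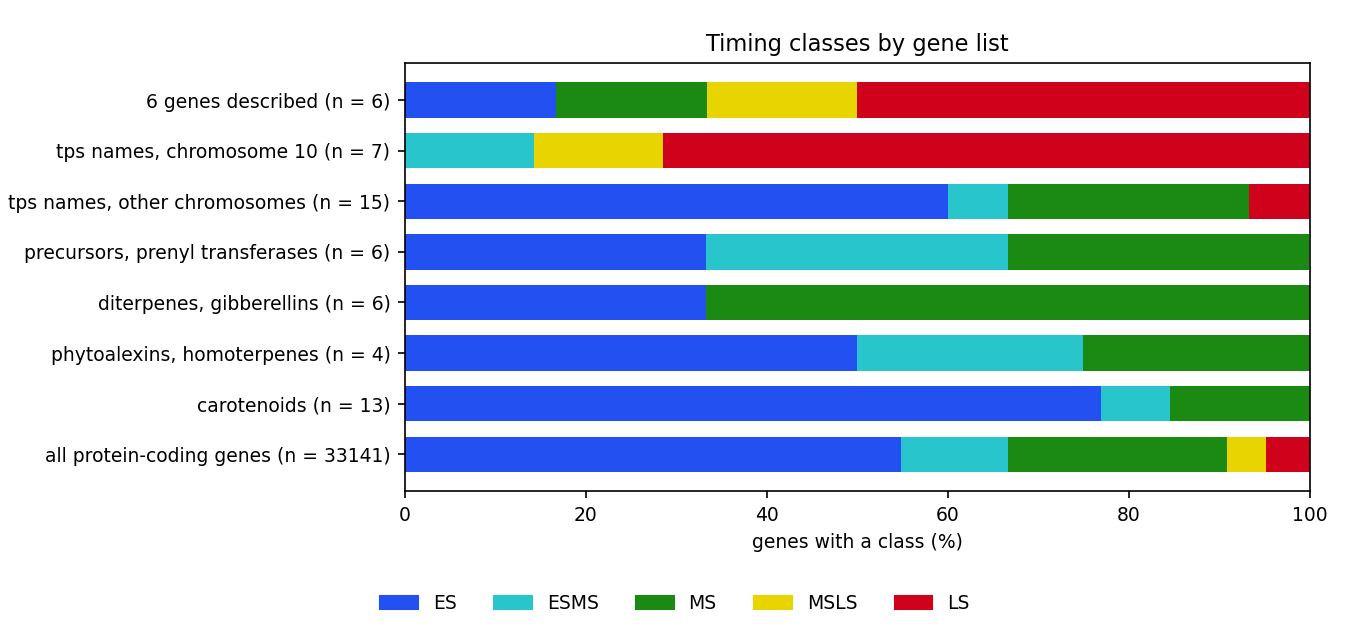
Share of classified genes (%) in each timing class. Bars are the 6 genes and all genes with tps names, on chromosome 10 and on the other chromosomes. Below them are 4 lists matched by terpenoid pathway names, and all protein-coding genes. LS takes 71.4% of the 7 tps names of chromosome 10 and 6.67% of the 15 on other chromosomes. It takes none of the 4 pathway lists and 4.86% of all protein-coding genes. The 7 include tps6, tps11, tps23 and tps10, and the 15 include tps1 and tps26, which are also among the 6 genes. Some tps names may be those of trehalose phosphate synthase genes.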

How the data were processed

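The deposited file holds timing classes and coordinates of 20613 segments in windows of 10 kb, per the file headers and the file itself, with no library column. Tools listed in the submitters' processing notes are Bowtie2 2.5.1, SAMtools 1.9 and Trimmomatic 0.39. How the segments were called, on which genome build, from which combination of replicates and with what treatment of multiply mapping reads is not given in the sources used. Groups were taken from the labels.

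A gene was assigned the class at its midpoint. Shares are of classified sequence within 500 kb on both sides, and the background was 33141 protein-coding genes in the 5 main classes. No build was named, so the match of coordinates was checked: in 20 Mb around each of the 6 genes the correlation of gene number per window with earlier class was highest at an offset of 0 or 10 kb, out to 200 kb (r from 0.132 to 0.185, across windows, as a description). The class functions were tested on simulated data. The software was Python 3.11.15, pandas 2.3.3 and numpy 2.4.6.

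The 6 genes and the lists were chosen with earlier results of these data known. Named are the 6 genes, their nearest neighbours, the LS and MSLS genes and first ES gene of each list, and the 2 most alike genes in class pattern. TPS2, TPS8, TPS9, TPS17, stc1, an1, an2 and the cytochrome P450 genes were named after their values were seen. So were sps1, LA1, M1Pi and the carotenoid genes other than pds1. Alternatives were other points of the gene, shifts of position, short segments joined, other distances and mixed classes joined. Protein and promoter sequences were not analysed here.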

Additional observations from a re-analysis of the deposited data

How the results depend on the processing

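The class of each of the 6 genes was the same in 41 of 42 alternatives (either gene end, segments under 30 kb given to the longer neighbour, and shifts of 10 and 50 kb both ways). The exception was a shift of 50 kb towards lower coordinates, which put tps6 in MS, so that MSLS held 0 genes and MS 2. LS held 3 genes and ES 1 under all of these. The LS share around a gene moved by over 10 percentage points in 8 of 18 alternatives (250 kb, 1000 kb, or MSLS joined to LS) and the ES share in 2 of 18. Around tps11 the LS share was 52.0% within 250 kb and 49.6% within 1000 kb. Alternatives chosen after seeing the data left 1 LS gene among the further tps names without chromosome 10, and none among names carried by 1 gene. No paired analysis was possible because the file has no library columns. For the same reason no replicate could be left out, and depth limits cannot be given.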

Other observations

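The early domain around tps1 held other genes with names of known function, listed here after their places were seen. glossy2, a gene of leaf wax formation, lay 24.6 kb above tps1 in the same ES segment. cad1, named as a cinnamyl alcohol dehydrogenase gene of lignin synthesis, lay 68.9 kb below it, and HAK15 and HAK11, potassium transporter genes, lay 70.6 kb above and 216 kb below. The MSLS segment of tps6 held no other protein-coding gene, but it was 60 kb long against 930 kb for the segment of tps1. With tps6 counted, it held 16.7 protein-coding genes per Mb, against 45.2 per Mb.

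The stretch from tps23 to tps10 was a mixture of classes rather than 1 late domain. Over its 17.0 Mb there were 195 segments, with MS at 36%, LS at 32.6%, MSLS at 21.2%, ES at 5.22% and ESMS at 4.98% of classified sequence. Of the 167 classified protein-coding genes between the 2 genes, 28 were in LS, which held 5.91% of such genes on all of chromosome 10.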
